A study of Mus musculus with 11 samples.

Results

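Expression of 10 genes that encode non-collagen matrix proteins was examined in the normal mouse mammary gland: Fn1, Fbln2, Sparc, Postn, Tnc, Thbs1, Thbs2, Spp1, Lox and Loxl2. They were chosen by name, as fibronectin, a fibulin, matricellular proteins and the enzymes that crosslink the matrix, with earlier results of these data known. They are 10 of the 27179 genes in the count tables. RNA-seq had been carried out on 11 libraries. MaSC/basal cells (CD24+CD29hi, enriched for mammary stem cells, n = 3), luminal progenitor-enriched cells (LP, CD24+CD29loCD61+, n = 3) and mature luminal-enriched cells (ML, CD24+CD29loCD61-, n = 3) were freshly sorted from mammary glands of wild-type virgin female FVB/N mice, 8 weeks old by the sample labels and 8 to 10 weeks by the series text. The mammosphere library (n = 1) came from CD24+CD29hi basal cells of the same strain, genotype and age grown for 1 week in non-adherent culture, and the other cultured library (n = 1) from CommaD-βGeo, called Comma Dβ here, a bipotent cell line labelled as derived from mid-pregnancy Balb/c mammary gland.

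Several features of the samples limit what each group can stand for. The sort gates enrich for a population and do not isolate 1 cell type, and they had removed blood, endothelial and leukocyte cells by surface marker, while no fibroblast marker is named. The submitted name of MaSC/basal replicate 1 contains "p53" although its genotype label is wild type, and that of the mammosphere library may join more than 1 culture. The series text calls the sorted samples independent, without saying how many mice each held. In bulk RNA, fewer cells of a type and less RNA per cell cannot be told apart.

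Between 19958838 and 75795034 reads were counted per library (median 38388464), and no pair of libraries was identical. The summed level of 7 basal markers (such as Krt5, Krt14 and Acta2) was 16171 to 22975 CPM (reads scaled to a common library size) in MaSC/basal libraries and 72.1 to 362 CPM in the luminal libraries. That of 5 luminal markers was 12763 to 16399 CPM in luminal and 1402 to 1692 CPM in MaSC/basal libraries. The Comma Dβ library held 1519 CPM of the basal and 211 CPM of the luminal markers, and the mammosphere library 3535 and 3162 CPM. The sum of 10 fibroblast markers (Col1a1, Col1a2, Col3a1, Dcn, Lum, Pdgfra, Pdgfrb, Dpt, Thy1 and Twist2) was 312 to 1440 CPM in the sorted libraries, against 2623 CPM for the mammosphere and 4032 CPM for the Comma Dβ library, and none of the 10 was at 0 in any group.

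Matricellular proteins are secreted into the extracellular matrix but serve less as scaffold than as signals: they bind integrins, syndecans, growth factors and the structural fibres, and they change how firmly a cell adheres. Fibronectin is the dimer that cells pull into fibrils, on which other matrix proteins are then laid down, and lysyl oxidases stiffen the product by crosslinking collagen and elastin. In the mammary gland the basal, myoepithelial layer of the epithelium lies against the basement membrane, with the stroma on the other side.

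The promoters of 4 genes are shown because each gene peaked in a different sample type or stands for a group: Sparc and Postn had their highest mean in MaSC/basal cells, Spp1 in LP cells and Tnc in mammospheres. Sequences are the 250 bases upstream of a RefSeq start (GRCm38.p6), printed 5′ to 3′ on the gene's strand, and were taken where the largest number of annotated transcripts of that gene begin, which for Postn lies inside the annotated locus. Capitals mark any match to 4 short motifs searched on both strands: TATAAA (the TATA box), CCAAT (the CCAAT box), TGTGGT (the core of the RUNX motif) and TGANTCA (the AP-1 motif). TATAAA was in 12.4% of 32851 such windows, CCAAT in 33.8%, TGTGGT in 14% and TGANTCA in 6.75%. The windows are chr11:55420081-55420330 (minus strand) for Sparc, chr3:54360857-54361106 (plus strand) for Postn, chr5:104434861-104435110 (plus strand) for Spp1 and chr4:64047016-64047265 (minus strand) for Tnc.
Sparc: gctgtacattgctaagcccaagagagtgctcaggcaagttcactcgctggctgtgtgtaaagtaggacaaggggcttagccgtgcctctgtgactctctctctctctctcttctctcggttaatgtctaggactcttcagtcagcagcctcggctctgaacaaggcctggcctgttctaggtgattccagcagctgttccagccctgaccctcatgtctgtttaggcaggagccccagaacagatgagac
Postn: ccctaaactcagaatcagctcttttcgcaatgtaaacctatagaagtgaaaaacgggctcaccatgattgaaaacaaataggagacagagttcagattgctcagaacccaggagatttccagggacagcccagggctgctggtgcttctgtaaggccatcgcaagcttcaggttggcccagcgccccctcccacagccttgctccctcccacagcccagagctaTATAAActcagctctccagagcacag
Spp1: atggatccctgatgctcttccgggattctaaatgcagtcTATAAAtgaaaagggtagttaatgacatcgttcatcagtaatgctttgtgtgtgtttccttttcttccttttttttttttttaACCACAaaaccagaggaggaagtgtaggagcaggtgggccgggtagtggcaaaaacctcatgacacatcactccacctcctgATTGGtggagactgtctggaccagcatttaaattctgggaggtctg
Tnc: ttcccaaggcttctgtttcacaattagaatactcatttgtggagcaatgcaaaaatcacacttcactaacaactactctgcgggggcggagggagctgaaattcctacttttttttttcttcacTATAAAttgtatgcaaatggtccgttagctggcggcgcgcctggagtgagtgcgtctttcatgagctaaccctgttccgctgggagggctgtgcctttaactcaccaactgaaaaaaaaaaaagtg
The Sparc window held none of the 4 motifs. Postn had TATAAA 26 to 21 bases before the start, and Tnc had it 126 to 121 bases before. Spp1 had TATAAA 211 to 206 bases before the start, TGTGGT on the opposite strand at 128 to 123 and CCAAT on the opposite strand at 46 to 42. A match is a description of the letters in the window only. RefSeq windows were found for 6 of the 10 genes, the others with one being Fbln2 and Thbs2.

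**Figure D1:**
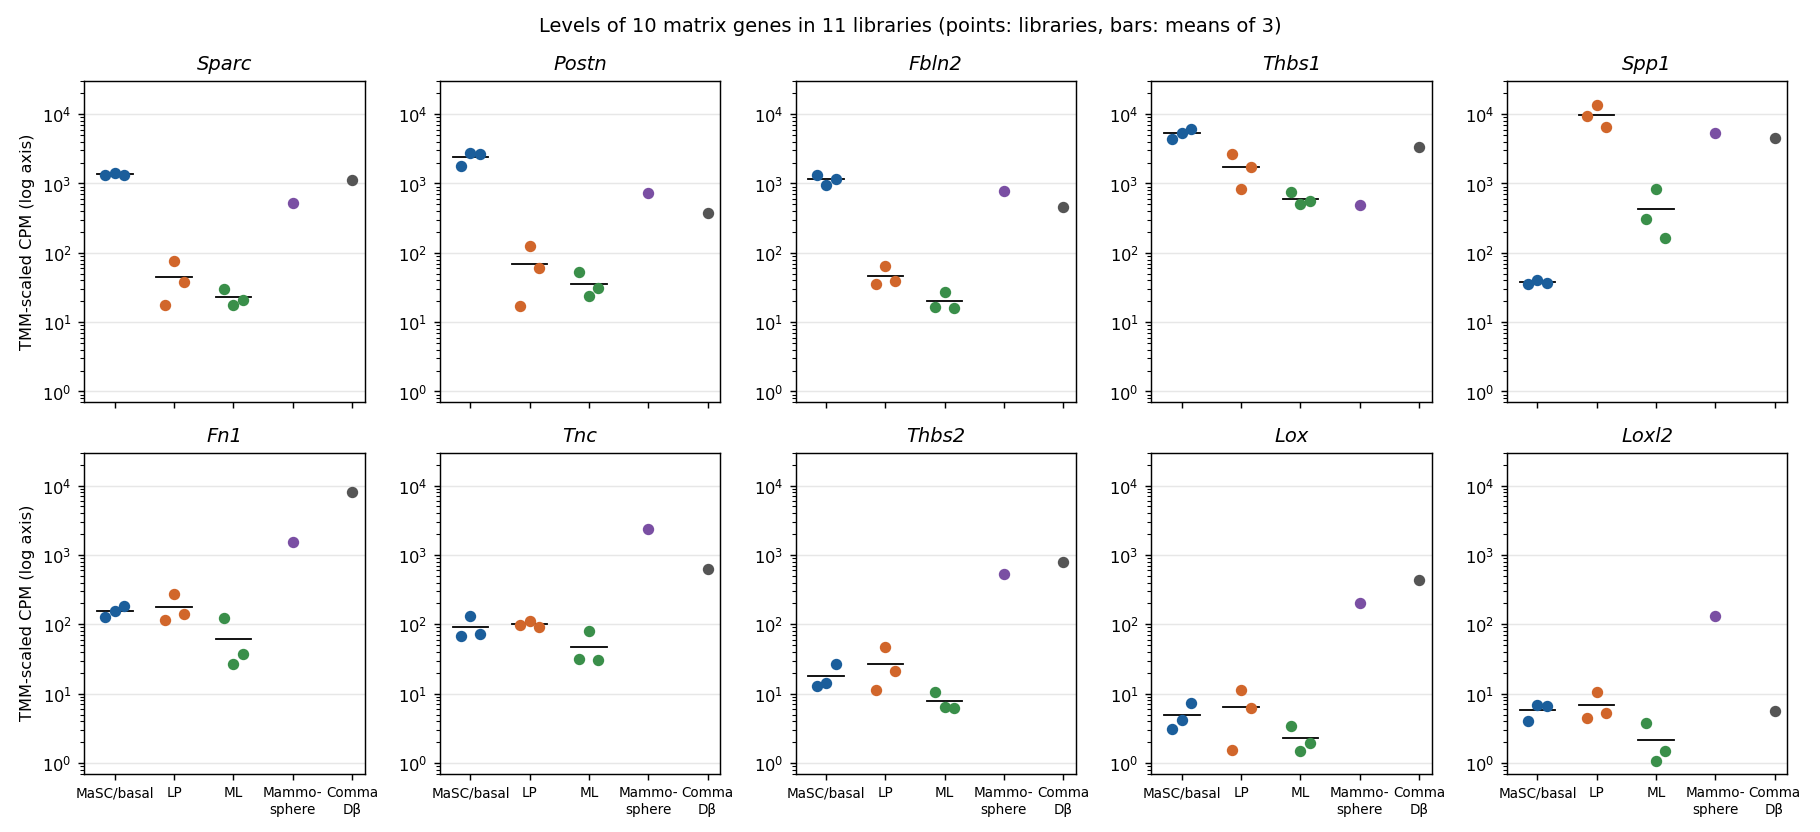
Each panel is 1 gene and each point 1 library, with the TMM-scaled CPM on a log axis by sample type (3 libraries each of MaSC/basal, LP and ML, 1 of mammospheres and 1 of Comma Dβ). Sparc, Postn and Fbln2 are at 957 CPM or more in the MaSC/basal libraries and at 127 CPM or less in every luminal library, Spp1 is highest in LP, and Fn1, Thbs2 and Lox reach their highest points in the cultured libraries.

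All 10 genes passed the filter of more than 0.5 CPM in at least 3 libraries, which left 15422 genes. The 10 genes together took 0.934 to 1.12% of counted reads in MaSC/basal libraries, 0.811 to 1.34% in LP and 0.0895 to 0.150% in ML, but different genes carried those shares. Per kilobase of exon, the scale on which genes can be compared, the MaSC/basal mean was 910 CPM per kb for Thbs1, 724 for Postn, 586 for Sparc and 257 for Fbln2, and 22.5 or less for each of the others. In LP cells the order was led by Spp1 at 5955 CPM per kb, followed by Thbs1 at 298 and Fn1 at 21.1. Spp1 (259) and Thbs1 (104) also led in ML, where the remaining 8 genes were at or below 10.9 CPM per kb. Lox and Loxl2 were the lowest 2 of the 10 in each sorted population, at 0.410 to 1.75 CPM per kb.

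Between MaSC/basal and LP cells, 4 of the 10 genes were higher in MaSC/basal (Sparc, Postn, Fbln2 and Thbs1), 1 was higher in LP (Spp1) and 5 did not pass the test at an adjusted p of 0.05 (edgeR quasi-likelihood test, Benjamini-Hochberg adjustment over 15422 genes). Of all genes tested, 29.4% were called higher in MaSC/basal and 28% higher in LP, 57.4% in all. The count of 5 called among 10 is therefore close to the background, and the size of the differences is what the values below describe. Between MaSC/basal and ML cells, 5 genes were higher in MaSC/basal (the same 4 and Loxl2) and 1, Spp1, was higher in ML, against 28.9% and 29.7% of all genes (58.7% either way). The median log2 difference of the 10 genes was -0.16 against LP and 1.40 against ML, where that of all genes was -0.01 in each. The comparisons with LP and with ML share their MaSC/basal libraries.

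Sparc encodes a calcium-binding glycoprotein that binds collagen and lowers cell adhesion (chromosome 11, 55394159 to 55420080, GRCm38). Its levels in the 3 MaSC/basal libraries were 1307, 1397 and 1339 CPM, against 17.9, 76.8 and 37.5 CPM in LP and 30.1, 17.4 and 20.8 CPM in ML. Every MaSC/basal library was above every luminal one by a wide margin, and the MaSC/basal libraries varied little among themselves (SD 45.7 CPM). The fitted level was 30.5-fold that in LP (log2 difference 4.93, SE 0.50, adjusted p = 1.82e-05) and 59.2-fold that in ML (5.89, SE 0.52, adjusted p = 6.93e-06). Per kilobase, Sparc ranked 61 to 73 among the 15422 genes in MaSC/basal cells.

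Postn encodes periostin, a ligand of αv integrins that aids collagen assembly (chromosome 3, 54359267 to 54391041). Its MaSC/basal levels were 1792, 2716 and 2645 CPM. In LP they were 17.2, 127 and 61.2 CPM and in ML 52.8, 23.7 and 31.4 CPM, so the luminal libraries differed from each other several-fold while all stayed far below MaSC/basal. Postn was 34.7-fold higher in MaSC/basal than in LP (5.12, SE 0.67, adjusted p = 1.13e-04) and 66.3-fold higher than in ML (6.05, SE 0.70, adjusted p = 4.42e-05).

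Fbln2 encodes fibulin-2, which links fibronectin, elastic fibres and basement membrane (chromosome 6, 91212460 to 91272540). Its levels were 1323, 957 and 1168 CPM in MaSC/basal, 36.1, 65.3 and 39.3 CPM in LP and 16.6, 27.6 and 16.2 CPM in ML. The 3 populations did not overlap. The MaSC/basal level was 24.5-fold that in LP (4.61, SE 0.32, adjusted p = 1.81e-06) and 56.9-fold that in ML (5.83, SE 0.34, adjusted p = 5.57e-07). Fbln2 was also 2.32-fold higher in LP than in ML (1.22, SE 0.28, adjusted p = 0.0104).

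Thbs1 encodes thrombospondin-1, a trimer that binds CD47 and CD36 and can release latent TGF-β (chromosome 2, 118111876 to 118127133). It differed from the other 3 basal-high genes in that luminal cells held much more of it. The levels were 4391, 5326 and 6119 CPM in MaSC/basal, 2623, 842 and 1718 CPM in LP and 749, 510.2 and 559 CPM in ML. The order MaSC/basal over LP over ML held with no overlap between populations, although LP replicates spread over more than 3-fold. Thbs1 was 3.06-fold higher in MaSC/basal than in LP (1.61, SE 0.37, adjusted p = 0.00372), 8.71-fold higher than in ML (3.12, SE 0.39, adjusted p = 6.90e-05) and 2.85-fold higher in LP than in ML (1.51, SE 0.37, adjusted p = 0.0124).

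These calls for Sparc, Postn, Fbln2 and Thbs1 against LP and ML held under all 15 alternatives run for each comparison, the left-out MaSC/basal replicate 1 among them. The sizes against LP moved with the LP replicate left out. MaSC/basal minus LP was 5.91 for Postn (adjusted p = 9.36e-05) and 5.59 for Sparc (adjusted p = 9.11e-06) without LP replicate 2. It was 4.65 (adjusted p = 5.8e-05) and 4.54 (adjusted p = 1.65e-05) without LP replicate 1. For Thbs1 it was 1.27 without LP replicate 2 and 2.025 without LP replicate 1. Within library batch, MaSC/basal minus LP was 6.19 in batch 1 and 4.15 in batch 2 for Sparc, 6.70 and 4.40 for Postn, 5.19 and 4.02 for Fbln2 and 0.74 and 2.76 for Thbs1 on the log2 scale. Against ML the within-batch differences were 5.44 and 6.29 for Sparc, 5.08 and 6.82 for Postn, 6.31 and 5.26 for Fbln2 and 2.55 and 3.48 for Thbs1. The direction was the same in both batches, and batch 3 held no MaSC/basal library. Of 8 endothelial markers, 6 were also higher in MaSC/basal than in LP and none lower (summed level 77.9 to 160.2 CPM against 22.8 to 62.6 CPM), and 3 were higher and 1 lower against ML (103 to 148 CPM), none of the 8 being at 0; their part in the results was not tested.

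Expressed as a percentage of the MaSC/basal mean, the 6 luminal libraries held 1.29 to 5.70% of Sparc, 0.720 to 5.34% of Postn, 1.41 to 5.68% of Fbln2 and 9.66 to 49.7% of Thbs1. The basal keratins and smooth muscle actin stood at 0.207 to 4.58% for Krt5, 0.357 to 2.41% for Krt14 and 0.196 to 1.56% for Acta2. LP replicate 2 had the highest Sparc, Postn and Fbln2 and also the highest Acta2, while Krt5 and Krt14 were highest in ML replicate 3.

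**Figure D2:**
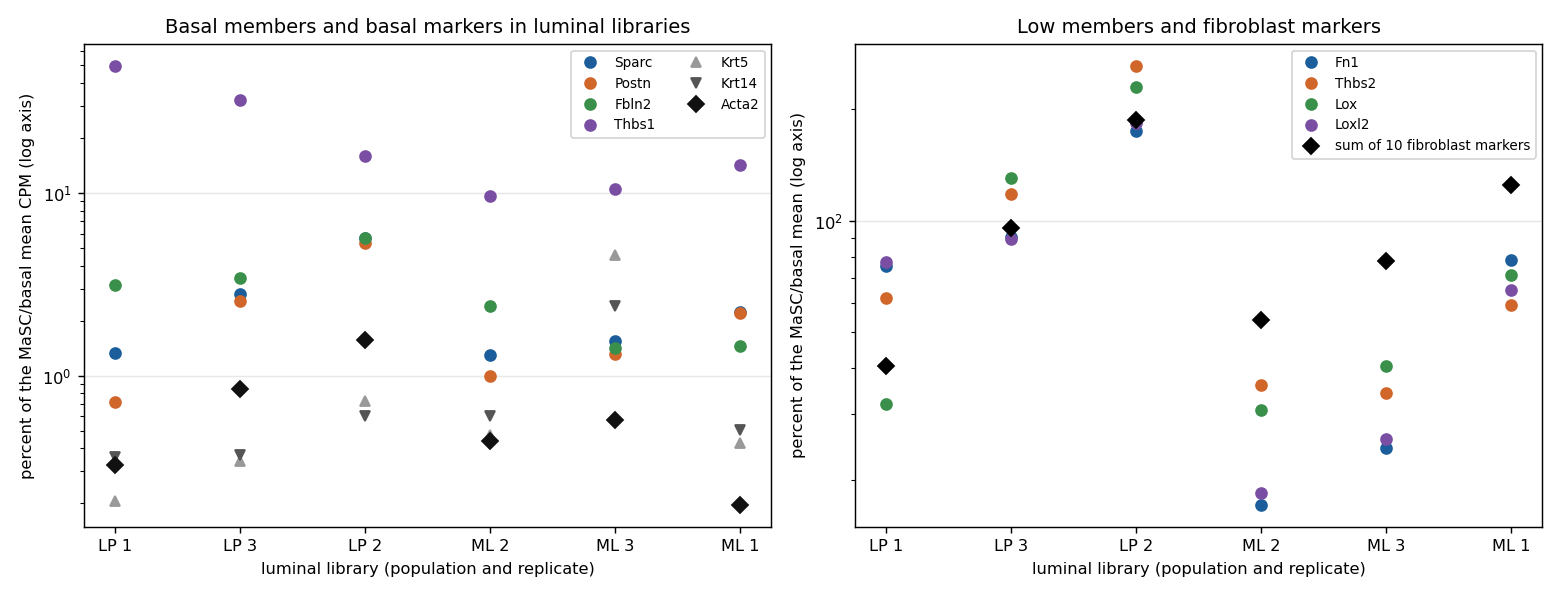
The left panel gives, for the 6 luminal libraries, the level of Sparc, Postn, Fbln2 and Thbs1 and of the basal markers Krt5, Krt14 and Acta2 as a percentage of the MaSC/basal mean. The right panel gives, for the same libraries, the level of Fn1, Thbs2, Lox and Loxl2 as a percentage of the MaSC/basal mean. The sum of 10 fibroblast markers is shown beside them in the same units. LP replicate 2, with a marker sum of 1440 CPM, has the highest level of all 4 genes.

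Spp1 encodes osteopontin, an acidic secreted phosphoprotein that binds integrins and CD44 and is also a milk protein (chromosome 5, 104435111 to 104441053). It ran opposite to the basal-high genes. The LP libraries held 9522, 13575 and 6522 CPM, the MaSC/basal libraries 35.1, 40.9 and 36.2 CPM and the ML libraries 304, 822 and 164 CPM. All 3 populations were separate, and Spp1 alone made up 0.612 to 1.20% of all counted reads in LP cells. Per kilobase it ranked 2 to 4 among the 15422 genes in LP, 98 to 600 in ML and 3053 to 3538 in MaSC/basal cells.

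Spp1 was 264-fold higher in LP than in MaSC/basal (log2 difference MaSC/basal minus LP -8.05, SE 0.68, adjusted p = 5.82e-06) and 23.0-fold higher than in ML (4.52, SE 0.58, adjusted p = 9.32e-04). It was also 11.5-fold higher in ML than in MaSC/basal (-3.52, SE 0.55, adjusted p = 3.32e-04). Within batches 1, 2 and 3, LP exceeded ML by 4.97, 4.05 and 5.31 on the log2 scale. ML replicate 2, which had the highest Spp1 of the ML libraries, also had the highest ML level of Itgb3, the gene for the CD61 antigen that separates the luminal gates (34.0 CPM against 8.68 and 4.51 in the other ML libraries and 149.5 to 279 in LP); its part in the result was not tested. Without ML replicate 2, MaSC/basal minus ML was -2.65 (adjusted p = 1.54e-04) and LP minus ML was 5.39 (adjusted p = 2.26e-04).

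**Figure D3:**
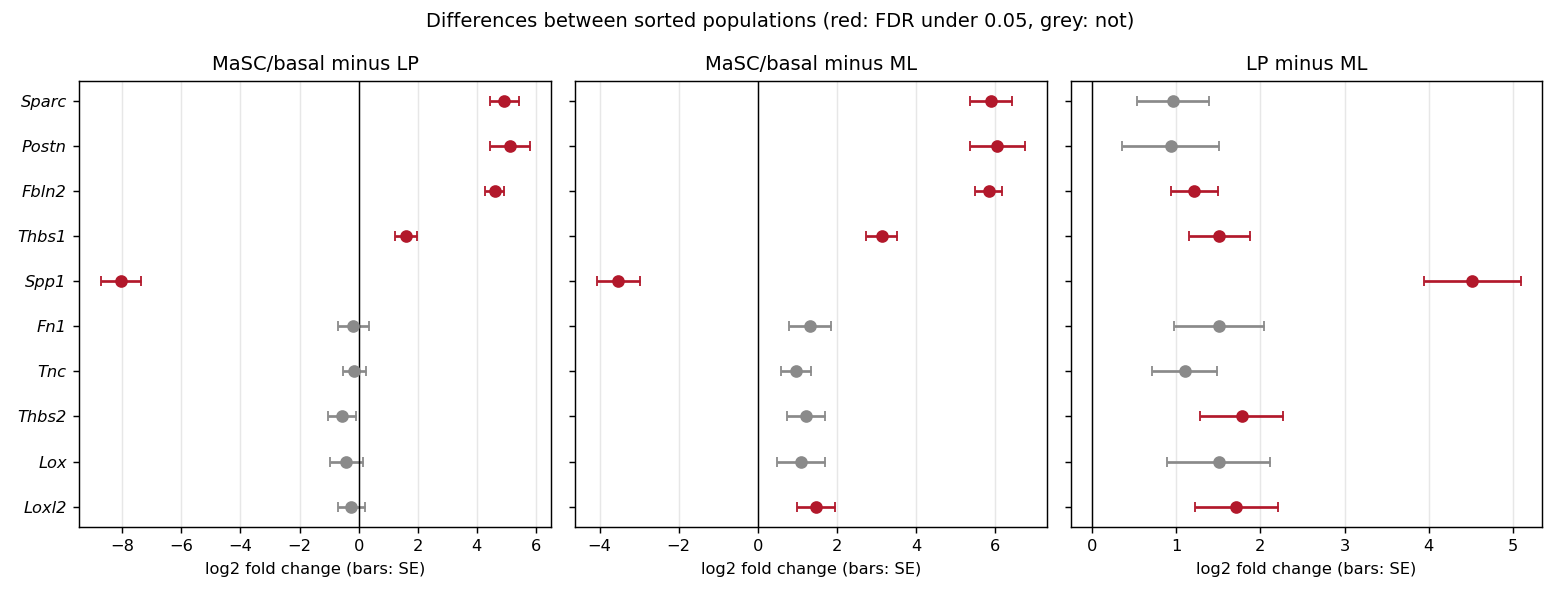
Log2 differences of the 10 genes between the sorted populations from the edgeR fit are shown with bars of ± 1 SE, and red points have an adjusted p under 0.05. Sparc, Postn and Fbln2 lie between 4.61 and 6.05 on the MaSC/basal side in both comparisons with luminal cells, and Spp1 is at -8.05 against LP and at -3.52 against ML.

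The other 5 genes, Fn1, Tnc, Thbs2, Lox and Loxl2, were not called between MaSC/basal and LP cells, and the libraries of those populations overlapped for each of them. Fn1, fibronectin (chromosome 1, 71585473 to 71653280), was at 127, 153 and 185 CPM in MaSC/basal, 117, 271 and 140.0 CPM in LP and 121, 26.5 and 37.8 CPM in ML. The log2 difference was -0.18 against LP (SE 0.52, adjusted p = 0.787) and 1.32 against ML (SE 0.53, adjusted p = 0.0534). All ML libraries were below all MaSC/basal ones, but ML replicate 1 was close to them, and without it the difference from ML was 2.27 (adjusted p = 0.00118). limma voom, with all libraries, gave 1.63 (adjusted p = 0.016) and DESeq2 gave 1.335 (adjusted p = 0.0735). Of the 15 alternatives, 4 called the difference from ML, and in the others the adjusted p reached 0.149.

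Tnc encodes tenascin-C, a hexameric glycoprotein that is induced in remodelling tissue and interferes with adhesion to fibronectin (chromosome 4, 63959785 to 64047015). It was at 68.4, 133 and 72.6 CPM in MaSC/basal, 98.4, 113 and 91.5 CPM in LP and 31.3, 79.3 and 30.5 CPM in ML. MaSC/basal and LP did not separate (-0.14, SE 0.38, adjusted p = 0.770). The differences of MaSC/basal from ML (0.96, SE 0.38, adjusted p = 0.0542) and of LP from ML (1.10, SE 0.39, adjusted p = 0.0532) narrowly missed the threshold and were not called. Without ML replicate 2 these were 1.56 (adjusted p = 0.00144) and 1.70 (adjusted p = 0.00287), and both were also called by DESeq2 (adjusted p = 0.0183 and 0.0114) and limma voom (0.0369 and 0.0313). With the library batch as a block, LP minus ML was 1.24 (adjusted p = 0.0128). Of the 15 alternatives, 4 called MaSC/basal against ML and 6 called LP against ML. In the others the adjusted p reached 0.213 and 0.28. Another counted gene, 8030451A03Rik, overlaps Tnc, and how reads in the overlap were counted is not given in the sources used here.

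Thbs2, the antiangiogenic relative of Thbs1 (chromosome 17, 14665500 to 14694262), was at 12.7, 14.4 and 26.8 CPM in MaSC/basal, 11.1, 47.0 and 21.3 CPM in LP and 10.7, 6.46 and 6.15 CPM in ML. MaSC/basal exceeded ML without overlap, by 1.21 (SE 0.49, adjusted p = 0.0544), and did not separate from LP (-0.57, SE 0.47, adjusted p = 0.332). Of the 15 alternatives, 4 called the difference from ML, among them DESeq2 (0.0161) and the fit without ML replicate 1 (0.0483). In the others the adjusted p reached 0.214, and limma voom gave 0.0743. Where Thbs1 was one of the most abundant of the 10 genes in the sorted cells, Thbs2 was among the 3 lowest per kilobase.

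The crosslinking enzymes were the lowest of the set. Lox, lysyl oxidase, was at 3.10, 4.15 and 7.27 CPM in MaSC/basal, 1.55, 11.1 and 6.30 CPM in LP and 3.45, 1.49 and 1.96 CPM in ML, and no pair of populations passed the test (adjusted p 0.563, 0.146 and 0.0858 for MaSC/basal against LP, MaSC/basal against ML and LP against ML). Loxl2 (chromosome 14, 69608692 to 69695834) encodes a lysyl oxidase-like enzyme active on collagen IV. Its levels were 4.00, 6.88 and 6.67 CPM in MaSC/basal, 4.51, 10.7 and 5.23 CPM in LP and 3.79, 1.08 and 1.50 CPM in ML. It was 2.78-fold higher in MaSC/basal than in ML (1.47, SE 0.49, adjusted p = 0.0240), a call lost with the batch as a block (1.25, adjusted p = 0.0868) and without MaSC/basal replicate 2 (adjusted p = 0.0647), MaSC/basal replicate 3 (0.0669), ML replicate 2 (0.0744) or ML replicate 3 (0.0697). Without ML replicate 1 it was larger (2.21, adjusted p = 0.00238).

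Between LP and ML, 5 of the 10 genes were higher in LP (Spp1, Thbs1, Fbln2, Thbs2 and Loxl2) and none was higher in ML, by edgeR, DESeq2 or limma or at an unadjusted p under 0.05, as all 10 estimates were on the LP side. Of all genes tested, 14.3% were called higher in LP and 17.5% higher in ML, 31.8% in all. The median log2 difference of the 10 genes was 1.50 against -0.01 for all genes, and 6 of the 10 did not overlap between LP and ML libraries, against 47.9% of all genes. Against MaSC/basal, 5 of 10 did not overlap with LP and 8 of 10 with ML, where 63.9% and 65.5% of all genes did not.

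Thbs2 was 3.43-fold higher in LP than in ML (1.78, SE 0.49, adjusted p = 0.0221) and Loxl2 3.28-fold higher (1.72, SE 0.49, adjusted p = 0.0244). These 2 calls were each lost when LP replicate 2, ML replicate 2 or ML replicate 3 was left out. The values were 1.08 (adjusted p = 0.0839) for Thbs2 and 1.23 (adjusted p = 0.098) for Loxl2 without LP replicate 2. They moved less without ML replicate 3, to 1.64 (adjusted p = 0.0671) and 1.55 (adjusted p = 0.0717). With ML replicate 2 left out they were 1.65 (adjusted p = 0.0572) and 1.345 (adjusted p = 0.06). Fn1 (1.51, SE 0.53, adjusted p = 0.0549), Lox (1.50, SE 0.61, adjusted p = 0.0858), Sparc (0.96, SE 0.43, adjusted p = 0.115) and Postn (0.93, SE 0.57, adjusted p = 0.241) did not pass. Without LP replicate 1 the differences of Sparc (1.35, adjusted p = 0.0177), Postn (1.41, adjusted p = 0.0331) and Lox (1.98, adjusted p = 0.0149) were called, and without LP replicate 2 they were 0.31, 0.15 and 0.77 and were not. Without ML replicate 1 those of Fn1 (2.46, adjusted p = 0.00563) and Loxl2 (2.47, adjusted p = 0.00752) were larger and called. The number of genes higher in LP was 8 without LP replicate 1 and 3 without LP replicate 2 or without ML replicate 3. Calls over all genes fell as well. Without LP replicate 1, 1671 of 15353 genes were higher in LP. Without LP replicate 2 the count was 1614 of 15364 and without ML replicate 3 it was 1497 of 15289, against 2204 of 15422 in the main fit.

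The within-batch differences showed how far single libraries mattered. LP minus ML in batches 1, 2 and 3 was -0.06, 3.35 and 1.89 for Fn1, 0.06, 2.85 and 1.78 for Thbs2, -1.13, 2.86 and 1.66 for Lox, and 0.25, 3.26 and 1.77 for Loxl2. Sparc (-0.75, 2.14 and 0.85) and Postn (-1.62, 2.42 and 0.96) followed the same order of batches. By contrast, Fbln2 (1.11, 1.24 and 1.27), Tnc (1.65, 0.51 and 1.58), Thbs1 (1.81, 0.72 and 1.62) and Spp1 were higher in LP by 0.51 or more in each batch.

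The same libraries stood out in the fibroblast markers. The 10-marker sum was 312, 1440 and 737 CPM in LP replicates 1, 2 and 3, 961, 416 and 599 CPM in ML and 615, 783 and 916 CPM in MaSC/basal, and 6 of the 10 markers were highest in LP replicate 2 among the 9 sorted libraries. Fn1, Fbln2, Sparc, Thbs2, Postn, Lox and Loxl2, 7 of the 10 genes, ran from low to high in the order LP replicate 1, 3, 2, as did 9 of the 10 markers and 18.5% of all genes tested. ML replicate 1 was the highest ML library for 7 of the 10 genes (Fn1, Sparc, Thbs1, Thbs2, Postn, Lox and Loxl2), for 9 of the 10 markers and for 28.6% of all genes. Without LP replicate 2 and ML replicate 1 together, a choice made after these values were seen, Fn1 was 2.02 higher in LP than in ML (adjusted p = 0.0095). Fbln2 was 0.80 higher (adjusted p = 0.106), Thbs2 was 1.38 higher (adjusted p = 0.0626), and 4 of the 10 genes were called. That fit called 973 of 15259 genes higher in LP and 964 higher in ML, against 2204 and 2695 of 15422 with all libraries. The part of fibroblast RNA in these levels was not tested.

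Each cultured sample type had 1 library, so its differences from sorted cells have no replicate check and no p-value. The mammosphere library shared batch 1 with MaSC/basal replicate 1. The Comma Dβ library was in batch 3, which held no MaSC/basal library. Cell line, strain and batch cannot be told apart in the differences of Comma Dβ from MaSC/basal cells. Mammosphere levels were 1528 CPM for Fn1, 2392 for Tnc, 538 for Thbs2, 201 for Lox, 134 for Loxl2 and 5388 for Spp1. Relative to the MaSC/basal mean these were higher by 3.32, 4.78, 4.98, 5.45, 4.55 and 7.17 on the log2 scale. Postn (732 CPM, difference -1.68), Sparc (524 CPM, -1.36) and Thbs1 (497 CPM, -3.40) were more than 2-fold lower, and Fbln2 (785 CPM, -0.54) was less than 2-fold lower. In all, 6 of the 10 genes were more than 2-fold higher and 3 more than 2-fold lower, where 19.7% and 20% of all genes were (39.7% either way).

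Comma Dβ cells held 7996 CPM of Fn1, 805 of Thbs2, 436 of Lox, 626 of Tnc and 4505 of Spp1, higher than the MaSC/basal mean by 5.71, 5.56, 6.57, 2.84 and 6.91 on the log2 scale. Postn (379 CPM, -2.63) and Fbln2 (458 CPM, -1.31) were more than 2-fold lower. Sparc (1108 CPM, -0.28) and Thbs1 (3325 CPM, -0.65) were within 2-fold and below the MaSC/basal range, and Loxl2 (5.58 CPM, -0.03) was inside it. The 5 genes past 2-fold higher and 2 past 2-fold lower compare with 16.9% and 24.8% of all genes (41.7% either way). Scaled by library size alone, without TMM, the median of all genes moved to 0.22 in mammospheres and 0.31 in Comma Dβ, and the Comma Dβ differences of Sparc and Loxl2 turned to 0.01 and 0.26.

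The cultures differed from each other as well as from sorted cells, and both comparisons share the MaSC/basal libraries. Fn1 in Comma Dβ was 29.6-fold above the highest sorted library and in mammospheres 5.65-fold above it. Tnc went the other way, at 17.9-fold above the highest sorted library in mammospheres and 4.69-fold in Comma Dβ. For Lox the folds were 18.0 in mammospheres and 39.2 in Comma Dβ, and for Thbs2 11.4 and 17.1. Loxl2 was 12.5-fold above the highest sorted library in mammospheres, the Comma Dβ level being 0.520 times the highest sorted library. The mammosphere level of Thbs1 was below all 9 sorted libraries, whereas Comma Dβ was between LP and MaSC/basal.

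**Figure D4:**
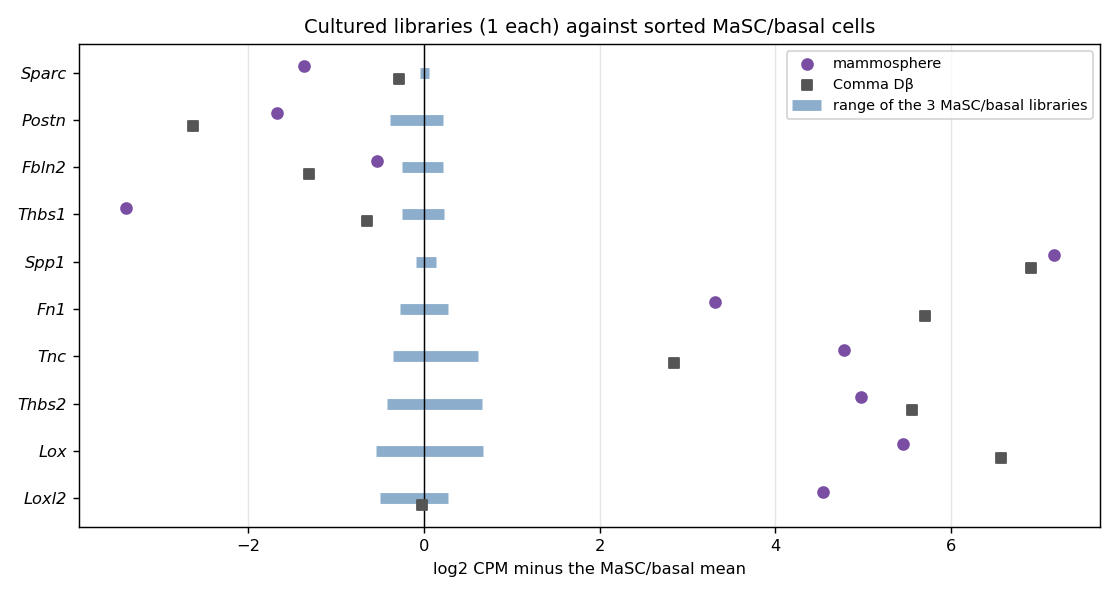
Log2 differences of the mammosphere and Comma Dβ libraries from the MaSC/basal mean are plotted for each gene, and bars give the range of the 3 MaSC/basal libraries. Fn1, Tnc, Thbs2, Spp1 and Lox lie above that range in both cultures (2.84 to 7.17), and Sparc, Postn, Fbln2 and Thbs1 lie below it in both (-0.28 to -3.40). Loxl2 is at 4.55 in mammospheres but at -0.03 in Comma Dβ.

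Per kilobase, Spp1 led both cultures (3250 CPM per kb in mammospheres and 2717 in Comma Dβ) and ranked 3 and 4 among all genes. It was followed by Tnc (337) and Sparc (228) in mammospheres and by Fn1 (962) and Thbs1 (573) in Comma Dβ. The 10 genes took 1.47% of counted reads in mammospheres and 2.38% in Comma Dβ. The Spp1 level in both was below that of every LP library and above that of every ML library. Of the 10 fibroblast markers, 8 were more than 2-fold above the MaSC/basal mean in mammospheres and none more than 2-fold below (Dcn -0.93 and Thy1 0.18 on the log2 scale). In Comma Dβ 6 were more than 2-fold above and 4 more than 2-fold below (Dcn -1.03, Lum -4.20, Dpt -3.66 and Thy1 -2.49). The mammosphere library also held 88.5 CPM of 6 skeletal muscle markers, against 1.53 to 2.21 CPM in MaSC/basal libraries and 1.53 CPM in Comma Dβ, with Acta1 at 34.7 CPM and Myog at 12.4 CPM. The part of either marker group in the results was not tested.

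Among relatives of the 10 genes, 11 of the 23 tested were higher in MaSC/basal than in LP and 3 were lower, where 29.4% and 28% of all genes were, and against ML the counts were again 11 and 3 (28.9% and 29.7% of all genes). Fstl1, a SPARC-related follistatin-like glycoprotein, averaged 474 CPM (SD 72.0) in the basal gate and 48.1 (SD 21.9) and 15.8 CPM (SD 9.42) in the LP and ML gates, a log2 difference of 3.30 from LP (adjusted p = 1.22e-04). Fbln1, fibulin-1, was at 118, 8.73 and 3.55 CPM (3.75, adjusted p = 5.49e-05), and Hmcn1, hemicentin-1, at 232, 5.22 and 2.69 CPM (5.44, adjusted p = 7.02e-05). Spock2, a SPARC-related proteoglycan, was at 119, 2.82 and 1.77 CPM (5.37, adjusted p = 4.46e-07). Efemp2, fibulin-4, differed less, at 55.1, 36.8 and 40.5 CPM (0.58, adjusted p = 0.00142). Dmp1, a mineralisation phosphoprotein of the family of Spp1, was low throughout but higher in LP (1.22 CPM) than in MaSC/basal (0.175 CPM; -2.81, adjusted p = 0.0049) and ML (0.162 CPM; 2.64, adjusted p = 0.0158). In the cultures 8 of the 23 relatives were more than 2-fold above MaSC/basal in mammospheres (19.7% of all genes) and 9 in the Comma Dβ line (16.9%), with 10 (20%) and 9 (24.8%) more than 2-fold below.

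The CCN proteins are matricellular ligands with a modular structure. Of 5 tested, Ccn2 and Ccn4 were higher in MaSC/basal than in LP and Ccn1 and Ccn5 were lower, 2 each way, where 29.4% and 28% of all genes were called. Ccn1 (CYR61) averaged 545 CPM among MaSC/basal, 3131 among LP and 875 among ML libraries (MaSC/basal minus LP -2.52, adjusted p = 9.14e-05). Ccn2 (CTGF) averaged 718, 85.8 and 33.6 CPM (3.07, adjusted p = 1.82e-04). Ccn5 averaged 3.08, 81.7 and 30.1 CPM (-4.73, adjusted p = 4.08e-06), and Ccn4 17.9, 1.29 and 0.501 CPM (3.70, adjusted p = 2.28e-05). Between LP and ML, 4 of the 5 were higher in LP (14.3% of all genes) and Ccn3 was not called.

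Of the 15 receptors tested, 5 were higher in MaSC/basal than in LP and 4 lower, shares near the 29.4% and 28% of all genes, and 8 were higher and 2 lower against ML (28.9% and 29.7% of all genes). Itga9, the integrin chain that binds tenascin-C and osteopontin, was at 104 CPM in the MaSC/basal gate but 2.51 and 2.03 CPM in the LP and ML gates (5.34, adjusted p = 2.95e-06 against LP). Itgb3, the β3 chain of the vitronectin receptor, averaged 69.1, 223 and 15.7 CPM, and Cd44, a receptor for osteopontin and hyaluronan, 431, 600 and 117 CPM. LP exceeded ML by 3.80 for Itgb3 (adjusted p = 0.00233) and by 2.35 for Cd44 (adjusted p = 0.00111). Itgb3 (CD61) and Itgb1 (CD29, averaging 1331, 572 and 565 CPM) were used to gate the cells, so their differences are no finding, although the counts of receptors above include them. Itga3 was at 675, 113 and 212 CPM (2.58 against LP, adjusted p = 5.96e-07), and Sdc4, the syndecan that acts with fibronectin receptors, at 1338, 2758 and 1821 CPM (-1.04, adjusted p = 0.00154).

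Of 19 tested genes for matrix assembly and processing, 11 were higher in MaSC/basal than in LP and 2 lower, and 10 and 2 against ML. The shares of all genes were 29.4% and 28% against LP and 28.9% and 29.7% against ML. Eln, elastin, a lysyl oxidase substrate, averaged 757 CPM in the MaSC/basal gate against 25.0 and 9.77 CPM in the LP and ML gates (4.91, adjusted p = 5.00e-07 against LP). Eln was at 23.4 CPM in the sphere culture and was at 2.11 CPM for the Comma Dβ line, the opposite direction to Lox in those libraries. Fbn2, fibrillin-2, was at 203, 5.22 and 3.38 CPM (5.25, adjusted p = 8.33e-07). Tgm2, the transglutaminase that crosslinks fibronectin, ran from 194 CPM in MaSC/basal to 797 in LP and 3476 in ML (LP minus ML -2.13, adjusted p = 0.00112). Mmp14, a membrane-bound collagenase, was lower in LP (110 CPM) than in MaSC/basal (252 CPM; 1.19, adjusted p = 2.73e-04) and ML (315 CPM; -1.52, adjusted p = 8.27e-04). Timp2, a metalloproteinase inhibitor, was at 373, 347 and 263 CPM.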

How the data were processed

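Libraries were made by the authors with the Illumina TruSeq RNA kit, in 3 library batches, and sequenced as single-end reads. Reads were aligned to mm10 with Rsubread and assigned to genes by the authors with featureCounts, and the deposited values used here are raw read counts per gene, with the exon length. The submitters' processing notes also name CASAVA 1.8.0, edgeR 3.6.2 and limma 3.20.5. How strand and multi-mapping reads were handled is not given in the sources used here.

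Entrez IDs were named from RefSeq (25275) or GENCODE (18). All 11 libraries were fitted together in edgeR 4.0.16 (R 4.3.3) with a mean per sample type, TMM scaling and the quasi-likelihood test, for the 15422 genes that exceeded 0.5 CPM in 3 or more libraries. P-values were adjusted by the Benjamini-Hochberg method over those genes, and an adjusted p under 0.05 was called. SE is the log2 difference divided by the root of F. Each cultured library was compared with the MaSC/basal mean of log2 CPM (prior count 2), at 2-fold, with no test. Depth was 19958838 to 75795034 counts. P-values rest on 1 spread per gene, pooled over the replicated populations and moderated across genes, and not on the spread of each population alone. Intervals for counting error are not given. The script was tested on simulated data.

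The genes and lists were chosen with earlier results of these data known. The names given are the 10 genes, and from each related list the 4 highest per kilobase and those with the largest called difference in each comparison. Sequences are from RefSeq (GRCm38.p6). Alternatives were other scalings, filters and tools (DESeq2 1.42.0, limma 3.58.1), the sorted libraries alone, library batch as a block, and each replicate left out. Batch labels paired LP and ML libraries: same-batch deviations from the group mean correlated at 0.320, 0.313 and 0.526, and other pairs at -0.419 to 0.086.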

Additional observations from a re-analysis of the deposited data

How the results depend on the processing

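The calls of Sparc, Postn, Fbln2, Thbs1 and Spp1 between MaSC/basal and each luminal population held under all alternatives run. The number of the 10 genes higher in LP than in ML ranged from 3 to 8 when single replicates were left out (8 without LP replicate 1, 3 without LP replicate 2 and 3 without ML replicate 3). Over the same fits, in that order, 1671 of 15353, 1614 of 15364 and 1497 of 15289 genes tested were called higher in LP. In the main fit 2204 of 15422 were. Library batch as a replicate block gave 4 genes higher in MaSC/basal and 1 lower against LP, 4 and 1 against ML, and 6 higher in LP than in ML; beside Loxl2 and Tnc it changed no other call.

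The sign of MaSC/basal minus LP turned for genes that were not called. Over the fits that left out 1 replicate it ran from -0.42 to 0.26 for Fn1, -0.96 to 0.14 for Thbs2, -0.88 to 0.33 for Lox and -0.48 to 0.25 for Loxl2, above 0 without LP replicate 2 and below 0 in the others. Without LP replicate 2 and ML replicate 1 together it was 0.25, 0.14, 0.32 and 0.25. For Tnc it was 0.0012 with library size only and ran from -0.51 to 0.039 with 1 replicate left out (0.0051 without MaSC/basal replicate 3). In Comma Dβ, library size only gave 0.0094 for Sparc and 0.26 for Loxl2, and Loxl2 ran from -0.28 to 0.11 with 1 MaSC/basal replicate left out (0.088 without replicate 3). The cause was not tested. Of the other single-gene values, 517 kept their call or level, 25 gained a call, 13 lost one and 10 moved by over 1 SD.

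Scaling by library size alone turned 4529 genes higher in MaSC/basal and 4324 higher in LP into 5244 and 3525 (median 0.14), and 2204 higher in LP and 2695 higher in ML into 1581 and 3798 (median -0.19). Lox and Loxl2, with 33 to 594 reads per sorted library, are the genes for which depth limits the precision most.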

Other observations

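The genes whose pattern over the 11 libraries was nearest to each of the 10, by root mean square difference of log2 CPM after centring, were as follows. Sparc lay nearest to Ppic, a cyclophilin of the secretory pathway (0.30), and to Col18a1, a basement membrane collagen (0.37), which was also nearest to Fbln2 (0.37), ahead of Chst3 (0.41). Postn lay nearest to Rcn3 (0.39) and Col4a2 (0.54), and Loxl2 nearest to Col5a3 (0.54) and Pla1a (0.72). Fn1 lay nearest to Sod3 (0.51) and Edil3 (0.52), Thbs2 to Colec12 (0.37) and Edil3 (0.58), and Lox to Tspan11 (0.56) and Twist2 (0.66), one of the fibroblast markers. Tnc lay nearest to Slc4a4 (0.47) and Tnfrsf22 (0.59), and Thbs1 to Mtcl1 (0.50) and Gulp1 (0.51). The nearest to Spp1 were farther away, Mgam at 1.18 and Gdpd2 at 1.27. Among the 10 genes, Thbs2 and Lox were the closest pair (0.45) and Postn and Spp1 the farthest (5.22). These distances share all 11 libraries and carry no test.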
